A study of Mus musculus with 2 samples.

Results

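The 35 genes described here encode the stress sensors of the endoplasmic reticulum, their transcription factors, the chaperones and disulfide isomerases that fold proteins in the organelle, the machinery that removes proteins that fail to fold, and targets of the transcription factors ATF4 and CHOP. They were chosen by name from the 32285 genes of the deposited count matrices, and all 35 were found there. The symbol Ddit3 stood at 2 entries, and all its values below come from the first and leave out the other. The members were grouped by role into 11 chaperones and co-chaperones, 4 disulfide isomerases, 6 sensors and transcription factors, 9 genes of ER-associated degradation and 5 ATF4 or CHOP targets. Both libraries came from whole brains of mice aged 6 months that carried APP-KI, a knocked-in amyloid precursor allele used to model Alzheimer's disease. One library was labelled Fit2-WT and the other Fit2-Mut, so the APP-KI background was shared and there was no library without it. The series design names disruption of Fit2 in macrophages as the purpose, while the allele, the driver of any deletion and the number of animals pooled in a library are not given in the labels. Brains were dissociated with a commercial enzymatic kit and profiled by droplet-based single-cell RNA sequencing from the 3' end.

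Proteins that enter the secretory pathway fold in the endoplasmic reticulum with the help of chaperones such as BiP, the product of Hspa5. When unfolded proteins accumulate, BiP leaves 3 membrane sensors, IRE1 (Ern1), PERK (Eif2ak3) and ATF6. IRE1 splices the Xbp1 mRNA into the form that encodes an active transcription factor, ATF6 is cut to release one, and PERK slows translation while favouring that of ATF4, which raises CHOP (Ddit3). Cells with a large secretory output, such as the choroid plexus epithelium that makes cerebrospinal fluid and the fibroblasts that lay down collagen, are known for abundant ER folding machinery. The libraries counted total Xbp1 transcripts, and the spliced form was not measured.

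ATF6 and XBP1 act through short promoter elements, and these are shown because they are carried by many of the chaperone genes whose levels are compared below. In the RefSeq promoter table of build GRCm38.p6, which holds 250 bases before and 50 bases after each gene start, 31 of the 35 members had an entry, and Hyou1, Manf, Atf6 and Derl1 were not in the table. The ER stress response element (ERSE), searched on both strands as CCAAT and CCACG with 9 bases of any kind between them, was found in 9 of the 31, or 29.0%, against 37 of 27018 genes in the table, or 0.137%. In the sequences that follow the element is in capitals with 5 flanking bases on each side, and each is written 5′ to 3′ on the strand that carries it.
Hspa5, chr2:34772020-34772048, plus strand: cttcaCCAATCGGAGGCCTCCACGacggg
Hsp90b1, chr10:86705633-86705661, minus strand: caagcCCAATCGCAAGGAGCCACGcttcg
Hsp90b1, chr10:86705528-86705556, plus strand: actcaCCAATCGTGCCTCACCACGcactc
Calr, chr8:84847070-84847098, plus strand: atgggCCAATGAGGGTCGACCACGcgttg
Canx, chr11:50325795-50325823, minus strand: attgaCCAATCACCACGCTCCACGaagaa
Dnajc3, chr14:118937822-118937850, plus strand: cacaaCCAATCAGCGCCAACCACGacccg
Creld2, chr15:88819515-88819543, minus strand: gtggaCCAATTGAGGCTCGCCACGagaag
Pdia6, chr12:17266486-17266514, plus strand: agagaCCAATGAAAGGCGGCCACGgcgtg
Syvn1, chr19:6046527-6046555, plus strand: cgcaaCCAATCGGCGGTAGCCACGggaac
Derl3, chr10:75893237-75893265, minus strand: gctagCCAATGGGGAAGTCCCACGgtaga
All of these lie before the gene start, and Hsp90b1 carried the element 2 times.

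The variant element ERSE-II, ATTGG and CCACG with 1 base of any kind between them, was found in Herpud1 and Dnajb11, which is 6.45% of the 31 against 0.0444% of the genes in the table. It is printed in capitals with the same flanks.
Herpud1, chr8:94386372-94386392, plus strand: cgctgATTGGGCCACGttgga
Dnajb11, chr16:22857847-22857867, plus strand: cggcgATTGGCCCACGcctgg
ATF4 acts through another element, searched here as TGATGNAA on both strands, which was found in 4 of the 31 members, or 12.9%, against 4.51% of the genes. Those 4 were Trib3, Chac1, Asns and Herpud1, and their matches are in capitals.
Trib3, chr2:152344034-152344051, plus strand: ccggcTGATGTAAacctg
Chac1, chr2:119351044-119351061, minus strand: aggagTGATGCAAcggca
Asns, chr6:7693220-7693237, minus strand: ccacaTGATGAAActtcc
Herpud1, chr8:94386312-94386329, minus strand: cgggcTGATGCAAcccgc
Herpud1 was the one member with a match to both kinds of element. The XBP1 core TGACGTGG was found in 0 of the 31 and in 0.714% of the genes. The shorter parts of the element were common: CCACG alone stood in 83.9% of the members and 35.5% of the genes, and CCAAT alone in 83.9% and 41.1%. A match describes the letters of these windows only.

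The Fit2-WT library held 52491901 UMIs (single molecules counted by their barcode) and the Fit2-Mut library 63234140. After filtering, 5209 Fit2-WT and 5824 Fit2-Mut cells remained, with a median of 6817 and 7376 UMIs per cell. They were grouped into 15 types named from markers, and 3 clusters with 210 and 208 cells stayed unnamed. Of the cell barcodes, 10 occurred in both libraries, which is 0.188% of the Fit2-WT ones. Fitm2, the mouse symbol of Fit2, was counted at 306 and 353 UMIs over all cells, at 16 and 1 UMIs in microglia-like cells and at 0 in border-associated macrophage-like cells of both libraries, which allows up to 3.37 and 3.08 CPM there (3 UMIs). At these counts it checks the labels only weakly. Some classes held markers of another type. The B cell-like cells carried 6491 and 16451 CPM (counts scaled to a common total per type) of 9 summed microglial markers beside 6144 and 3296 CPM of B cell markers. The border-associated macrophage-like cells carried 5946 and 12477 CPM of the microglial markers, against 26430 and 25455 CPM in the microglia-like cells. They also carried 2198 and 1155 CPM of monocyte markers, beside 1665 and 1752 CPM of their own markers. Choroid plexus markers summed to 8125 and 563 CPM in them and to 12511 and 785 CPM in NK cell-like cells, and the part of these markers in the results was not tested. The part of these markers in the results below was not tested.

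Levels are CPM of the counts summed over the cells of a type, given for the Fit2-WT library first and the Fit2-Mut library second. Because each genotype is 1 library, there was no replicate error and no test, and every interval is an exact 95% interval that covers counting error only. A member was called higher or lower in a type when its level differed at least 2-fold from that of all other cells in both libraries. This needed at least 10 UMIs over all cells of each library, with no minimum in the type. A scarce gene with no UMI in a small type was therefore called lower. The lower calls in NK cell-like cells (Derl3 and Chac1) and fibroblast-like cells (Chac1) were of scarce members. Derl3, Trib3 and Chac1 were among those in smooth muscle-like cells. Of the 35 members, 34 had at least 50 UMIs in each library, the exception being Chac1 with 15 and 13. For 25 members the highest type was the same in both libraries.

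On CPM, the chaperones were highest in fibroblast-like, ependymal-like and microglia-like cells. Hspa5, which encodes the central chaperone and brake of the sensors, stood at 1360 and 1795 CPM in fibroblast-like cells, 1128 and 1139 in ependymal-like, 767 and 887 in choroid plexus epithelium-like and 761 and 742 in microglia-like cells. The ranges of the 2 libraries did not overlap between successive types among these 4, nor between the last of them and border-associated macrophage-like cells at 563 and 668 CPM, whereas neighbours further down the order overlapped. Neuroblast-like cells with 176 and 173 CPM and neuron-like cells with 119 and 195 CPM were among the lowest. The fibroblast-like level was 2.33-fold and 2.89-fold that of all other cells. This order is on CPM and depends on scaling. With TMM factors, which set the bulk of genes level, the fold over all other cells was 3.32 and 3.60 in choroid plexus epithelium-like cells. It was then 2.08 and 2.66 in fibroblast-like, 1.77 and 1.72 in ependymal-like and 1.77 and 1.57 in microglia-like cells. RNA in nearly empty droplets, a measure of free RNA, held Hspa5 at 315 and 368 CPM, which is above the levels of neuroblast-like, neuron-like and astrocyte-like cells, the last at 293 and 305 CPM.

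Dnajc3, which encodes the co-chaperone p58IPK, showed a steeper order. It was at 701 and 774 CPM in ependymal-like cells (4.41-fold and 4.44-fold over all other cells) and 632 and 638 in fibroblast-like cells, and between 26.7 and 332 CPM in the other 13 types. Creld2, an ER chaperone with isomerase activity, was also highest in ependymal-like cells at 132 and 147 CPM, 5.05-fold and 5.03-fold over the rest. Manf, a small ER protein that can be secreted and acts as a neurotrophic factor, was highest in fibroblast-like cells at 490 and 651 CPM (2.63-fold and 3.50-fold). Hyou1, the nucleotide exchange factor of BiP, was at 43.6 and 44.9 CPM in the same cells (2.71-fold and 2.51-fold). Ependymal-like and fibroblast-like cells therefore led for different co-chaperones.

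Sdf2l1, a partner of BiP and its co-chaperones, was highest in microglia-like cells instead. It reached 318 (302 to 334) and 301 (287 to 314) CPM there, 5.08-fold and 4.29-fold over the rest, while astrocyte-like cells had 8.40 and 9.55 CPM and neuroblast-like cells 9.77 and 8.93. After each cell was thinned to 1000 UMIs, 19.8% and 20.1% of microglia-like cells had an Sdf2l1 UMI, against 0.833% and 0.549% of astrocyte-like cells. Without thinning the shares were 78.5% and 81.9% against 3.91% and 4.53%, at median depths of 11257 and 13169 UMIs against 4381 and 5131. The difference was thus present at equal depth. Dnajb9, the co-chaperone ERdj4, was the 1 member called higher in astrocyte-like cells, at 86.3 and 87.9 CPM.

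Among the disulfide isomerases, Pdia4 was highest in ependymal-like cells at 268 and 289 CPM (3.75-fold and 3.38-fold over the rest). P4hb, which is also a subunit of the collagen prolyl hydroxylase, was highest in fibroblast-like cells at 172 and 194 CPM (2.63-fold and 2.82-fold), followed by microglia-like cells at 137 and 127. Pdia3 was at 719 and 901 CPM in fibroblast-like and 721 and 676 in microglia-like cells, so these 2 types could not be ordered. Pdia6 varied little among the highest types, at 343 and 383 CPM in fibroblast-like, 338 and 350 in microglia-like and 326 and 331 in ependymal-like cells.

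**Figure D1:**
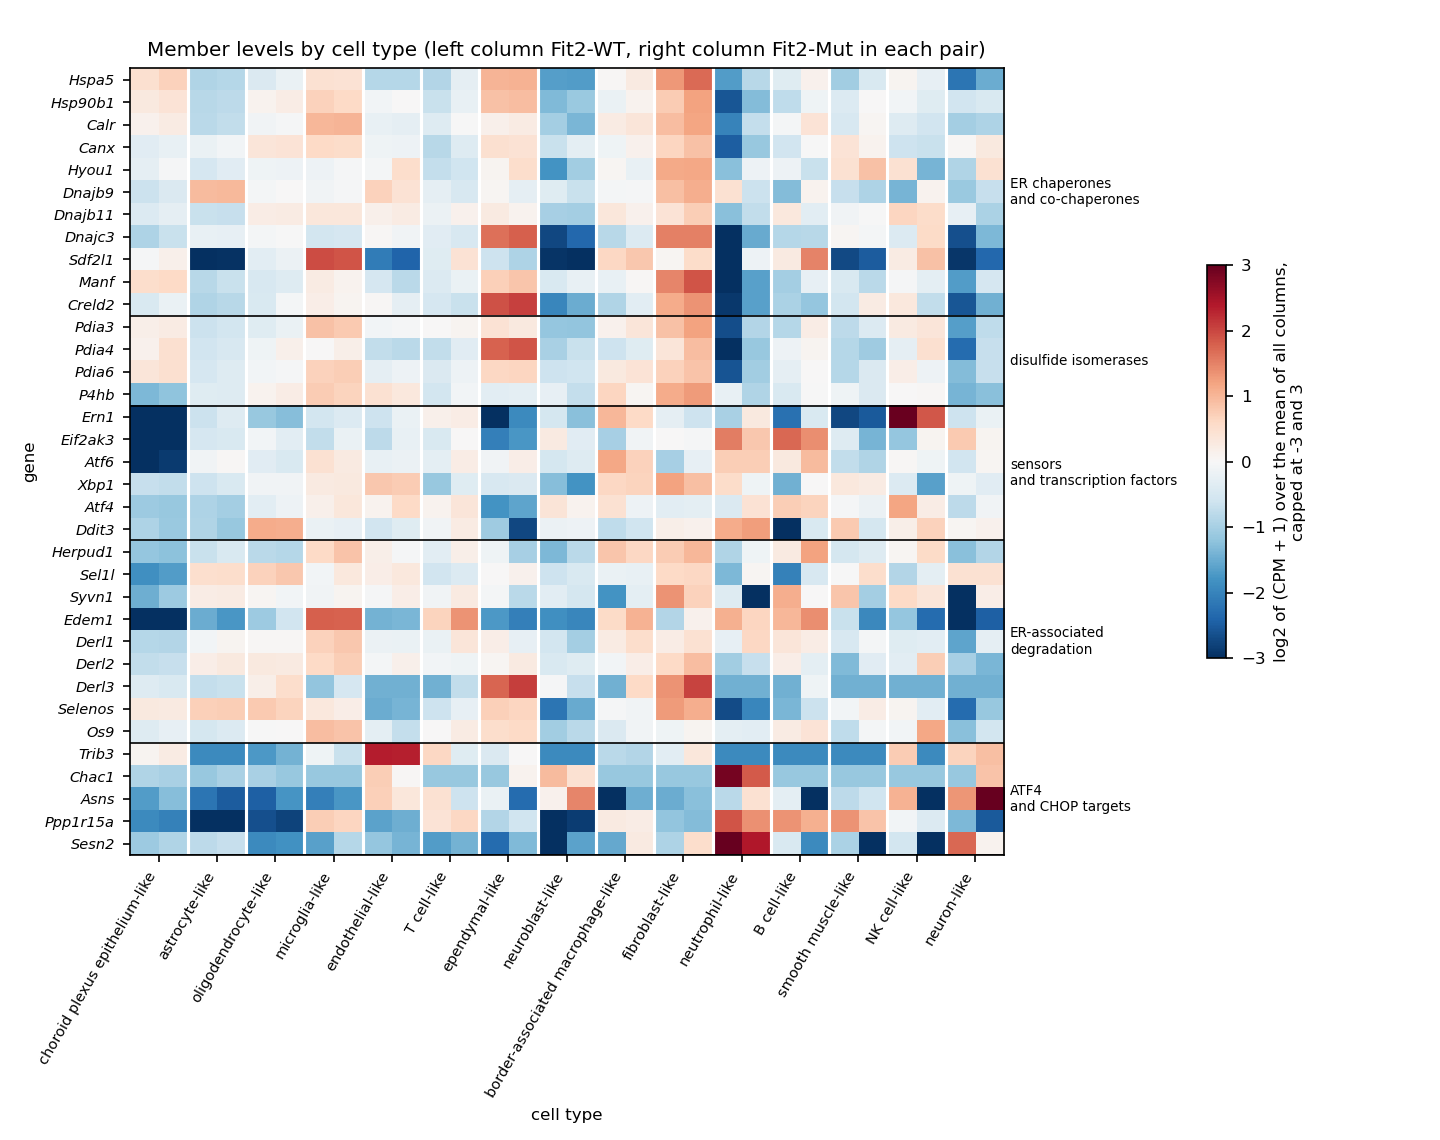
Level of each of the 35 members in 15 cell types, as the log2 of CPM + 1 relative to the mean over all columns of that gene, capped at -3 and 3, with the Fit2-WT library in the left and the Fit2-Mut library in the right column of each pair. Chaperones and isomerases are high in fibroblast-like, ependymal-like and microglia-like columns, and Ern1, Eif2ak3 and Atf6 are lowest in the choroid plexus epithelium-like columns.

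The sensors followed another order. Ern1, the IRE1 kinase and RNase, was highest in NK cell-like cells at 247 (181 to 330) and 115 (67.1 to 184) CPM, followed by border-associated macrophage-like cells at 62.9 and 47.2 CPM, and lowest in choroid plexus epithelium-like cells at 0.954 and 1.33 CPM. The NK cell-like value rested on 46 and 17 UMIs in 45 and 35 cells, and 54.3% and 58.8% of those UMIs lay in 5 cells. After thinning to 1000 UMIs, 15.6% (6.49 to 29.5) and 11.4% (3.20 to 26.7) of NK cell-like cells had an Ern1 UMI. Among astrocyte-like cells the share was 2.33% (1.55 to 3.35) and 1.99% (1.34 to 2.84). Within each library the NK cell-like and astrocyte-like intervals did not overlap, while the Fit2-Mut NK cell-like interval reached below the upper end of the Fit2-WT astrocyte-like one. Without thinning the shares were 46.7% and 34.3% against 8.91% and 11.1%.

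Eif2ak3, the PERK kinase, was highest in B cell-like cells at 86.8 and 68.2 CPM from 15 and 46 UMIs, and next in neutrophil-like cells at 76.2 and 45.4 CPM. Choroid plexus epithelium-like cells were again lowest with 0.715 and 1.63 CPM. Atf6, the sensor that becomes a transcription factor, stood at 118 and 84.1 CPM in border-associated macrophage-like and 87.6 and 87.3 CPM in neutrophil-like cells, and these overlapped. In choroid plexus epithelium-like cells it was at 4.65 and 6.27 CPM. All 3 sensor genes were thus lowest in an epithelium that stood among the highest types for Hspa5, in both libraries. The nuclear RNA Malat1 made up 0.0386% and 0.0382% of UMIs in the largest choroid plexus cluster and 0.0575% and 0.0403% in the next. It made up 0.0727% and 0.0773% in an unnamed Cox6a2-led cluster and 2.46% and 2.30% in ependymal-like cells. The 6 sensors and transcription factors summed to 140 and 121 CPM in that unnamed cluster and 132 and 143 in ependymal-like cells. The part of low Malat1 in the sensor levels was not tested.

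Xbp1, the target of IRE1, did not share the order of its activator. It was highest in fibroblast-like cells at 151 and 121 CPM (2.84-fold and 2.24-fold) and next in endothelial-like cells at 115 and 110 CPM (2.23-fold and 2.06-fold), against 26.1 and 17.9 CPM in neuroblast-like cells. Atf4 was at 118 and 60.9 CPM in NK cell-like and 86.8 and 83.0 in B cell-like cells, against 14.3 and 16.5 in ependymal-like cells. Ddit3, which encodes CHOP, was highest in neutrophil-like cells at 72.4 and 80.3 CPM from 19 and 23 UMIs and in oligodendrocyte-like cells at 72.7 and 71.1 CPM from 533 and 731 UMIs. The oligodendrocyte-like level was 3.50-fold and 3.59-fold over the rest.

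Of the degradation genes, Edem1, a lectin that hands misfolded glycoproteins to the retrotranslocation machinery, was concentrated in microglia-like cells. It was at 131 (121 to 142) and 130 (122 to 139) CPM there, 9.15-fold and 6.84-fold over the rest, and at 2.86 and 2.59 CPM in choroid plexus epithelium-like cells. At 1000 UMIs per cell, 11% and 10.7% of microglia-like cells had an Edem1 UMI against 0.208% and 0.402% of choroid plexus epithelium-like cells. Without thinning these were 71.6% and 74.7% against 3.19% and 2.81%, at median depths of 11257 and 13169 against 10055.5 and 9861.5 UMIs. Derl1, a channel component, was also highest in microglia-like cells at 125 and 134 CPM. Os9, another lectin of the pathway, was at 253 and 239 CPM there and at 124 and 298 CPM in NK cell-like cells. Sel1l, the scaffold of the ubiquitin ligase HRD1, was highest in oligodendrocyte-like cells at 82.7 and 88.7 CPM (2.35-fold and 2.07-fold). Herpud1, an organiser of the complex, was at 123 and 146 CPM in fibroblast-like and 110 and 130 in microglia-like cells. Derl3 was scarce, with its highest level of 8.02 and 10.3 CPM in ependymal-like cells.

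The ATF4 and CHOP targets were scarce in most glia. Ppp1r15a, which encodes the GADD34 subunit that restores translation, was highest in neutrophil-like cells at 339 and 238 CPM (8.10-fold and 5.55-fold) and low in astrocyte-like cells at 8.07 and 7.88 CPM. Sesn2, a stress-induced inhibitor of growth signalling, was highest in neutrophil-like cells too, at 76.2 and 48.9 CPM from 20 and 14 UMIs. Trib3, a pseudokinase induced by CHOP, was highest in endothelial-like cells at 18.1 and 17.8 CPM from 34 and 28 UMIs, and had 0 UMIs in astrocyte-like cells of either library, which allows up to 0.494 and 0.358 CPM (3 UMIs). Asns, asparagine synthetase, reached 19.8 and 66.1 CPM in neuron-like cells, on 4 and 22 UMIs. A list of 12 immediate early genes of dissociation summed to 19702 and 14793 CPM in neutrophil-like and 233 and 236 in astrocyte-like cells. It summed to 9970 and 9111 CPM in microglia-like cells. In NK cell-like cells, where Ppp1r15a was not called, the sum was 5578 and 6155 CPM. The part of dissociation in the order of these targets was not tested.

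Counted by type, fibroblast-like cells had 10 of 35 members at least 2-fold higher, where 9.47% of all 18210 genes tested were. The median log2 fold of the members there was 0.69 and 0.82, against 0.15 and 0.10 over all genes, and 1 member was lower (28.6%). Microglia-like cells had 8 higher (12.2% of all genes): Calr, Sdf2l1, P4hb, Herpud1, Edem1, Derl1, Os9 and Ppp1r15a, and 2 lower (39.7%), Chac1 and Asns. Ependymal-like cells had 4 (17.9%), namely Dnajc3, Creld2, Pdia4 and Derl3, a share below that of all genes, and 3 lower (25.3%), Eif2ak3, Atf4 and Edem1. Neuroblast-like cells were at the other end, with 13 of 35 lower (33.3% of all genes) and a median of -0.91 and -0.92 against 0.26 and 0.10 over all genes. Neutrophil-like cells had 6 higher (8.63%) and 12 lower (54.3%). All 6 higher ones were sensors, Ddit3 or ATF4 and CHOP targets, and 9 of the 12 lower ones were chaperones or isomerases. With TMM factors 8 were higher (10.8%) and 6 lower (47.6%), and of those 6 Hsp90b1, Manf and Creld2 were chaperones.

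The other types had 1 to 4 members higher. Oligodendrocyte-like cells had 3 higher (12.4%), Ddit3, Sel1l and Derl3, and 5 lower (39.5%), which were the 5 ATF4 and CHOP targets. Endothelial-like cells had 4 higher (11%), Xbp1, Trib3, Chac1 and Asns, and 4 lower (36.1%), and 3 of those 4 higher ones were ATF4 and CHOP targets. T cell-like cells had 3 higher (9.96%), Ern1, Edem1 and Ppp1r15a, and 2 lower (37.8%). Border-associated macrophage-like cells had the same 3 and Atf6 higher (9.91%), and 2 lower (38.4%). B cell-like cells had 4 higher (6.84%), Eif2ak3, Atf4, Edem1 and Ppp1r15a, and 3 lower (41.9%). Edem1 and Ppp1r15a were thus called in each of these 3 immune classes as in microglia-like cells, and each of the 3 held microglial markers. Without the T cell-like cluster that carried them, described below, Edem1 was at 39.4 and 52.0 CPM and Ppp1r15a at 125 and 116 CPM in T cell-like cells. Astrocyte-like cells had 1 higher (22.9%) and 9 lower (31.3%), neuron-like cells 3 higher (15.2%) and 9 lower (29.3%), which became 1 higher (10.6%) and 18 lower (34.2%) with TMM factors, smooth muscle-like cells 1 higher (8.52%) and 5 lower (34.6%), NK cell-like cells 1 higher (8.42%) and 2 lower (49.2%), and neuroblast-like cells 2 higher (14.8%).

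In choroid plexus epithelium-like cells 0 members were called higher (9.39% of all genes) and 12 lower (57.2%), a count that depends on how the library totals are scaled. Ttr, the transthyretin mRNA, made up 22.5% and 23.2% of all UMIs of these cells, which lowers the CPM of every other gene. With TMM factors, which set the bulk of genes level, the shift was -1.06 and -1.09 on the log2 scale, and 9 members were higher (22.8% of all genes). They were Hspa5, Hsp90b1, Calr, Manf, Pdia3, Pdia4, Pdia6, Trib3 and Sesn2, while Ern1, Eif2ak3, Atf6, Sel1l and Edem1 remained among the 5 that were lower (41.3%). The 3 sensors were therefore called lower under both scalings. Hspa5, at 1.59-fold and 1.69-fold on CPM, was above other cells under both and passed the 2-fold line with TMM factors only. With TMM factors microglia-like cells had 14 members higher (16.7% of all genes), after a shift of -0.41 and -0.40. Their reported 8 became 4 with doublets kept or with types called from the marker share of each cell, and 5 with an unnamed Cox6a2-led cluster added.

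Across the 15 types, the levels of 6 chaperones and isomerases were ordered much as those of Hspa5, and those of others less so. Spearman's rho with Hspa5 was 0.97 and 0.92 for Pdia6, 0.93 and 0.83 for Pdia4, 0.90 and 0.86 for Pdia3, 0.89 and 0.88 for Calr, 0.84 and 0.85 for Hsp90b1 and 0.84 and 0.78 for Manf. It was lower for Canx at 0.46 and 0.52, Dnajc3 at 0.46 and 0.48, P4hb at 0.39 and 0.45, Hyou1 at 0.63 and 0.26 and Dnajb9 at 0.12 and 0.35. For the sensors and stress effectors it was near 0 or negative, at -0.01 and -0.30 for Ern1, -0.58 and -0.12 for Eif2ak3 and -0.35 and -0.23 for Ddit3. These values describe 15 points that share a library and differ in depth, and of these isomerases and chaperones Pdia3 and Pdia4 had no match to the elements printed above, while Pdia6, Calr and Hsp90b1 did.

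The choroid plexus epithelium-like cells fell into 2 large clusters, and these were compared after their levels had been seen. One was led by Folr1 and Ttr, with 868 and 911 cells, and the other by Vat1l, with 566 and 578 cells and 4 choroid plexus and 4 ependymal markers above their thresholds. The clusters were built without the 35 members. Hspa5 was at 935 and 1067 CPM in the Folr1-led and 507 and 568 CPM in the Vat1l-led cluster, a fold of 1.84 and 1.88. Pdia6 was at 338 and 371 against 167 and 159 CPM, Derl1 at 53.6 and 52.5 against 22.4 and 21.1, and Selenos, a selenoprotein of the degradation complex, at 229 and 225 against 121 and 110. Each was higher in the Folr1-led cluster in both libraries, with folds up to 2.48 for Derl1.

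Of 31 members measured, 18 were at least 1.5-fold higher in the Folr1-led cluster in both libraries, where 6.82% of all genes were, and 0 were lower, where 26.3% were. The median log2 fold was 0.75 and 0.81, against -0.46 and -0.51 over all genes. The count divided sharply by role. Of the chaperones 10 of 11 were higher, of the isomerases 4 of 4 and of the degradation genes 4 of 8, namely Derl1, Derl2, Selenos and Os9. Of the sensors and transcription factors 0 of 4 were, and of the ATF4 and CHOP targets 0 of 4. Xbp1 had a fold of 1.29 and 1.34, Atf6 of 0.590 and 0.942, Atf4 of 0.851 and 0.655 and Ppp1r15a of 0.827 and 0.689. Among members with ERSE or ERSE-II 7 of 10 measured were higher, and among those in the promoter table with neither 8 of 17. Ttr took 28.0% and 28.4% of the UMIs of the Folr1-led and 14.0% and 13.8% of the Vat1l-led cluster, so these folds are given on totals that Ttr lowers in the former.

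Lists of other genes of the secretory pathway gave counts in the same contrast. Of N-glycan transfer and trimming genes 7 of 11 were higher and 0 lower, including Rpn1, Rpn2 and Ddost of the oligosaccharyltransferase. Of other ER folding factors 10 of 15 were higher, among them Ppib and Txndc5, and of the translocon and signal peptidase genes 7 of 14. Of cytosolic and mitochondrial heat shock genes 0 of 11 were higher and 4 lower, and of other integrated stress response targets 2 of 15 were higher and 4 lower.

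**Figure D2:**
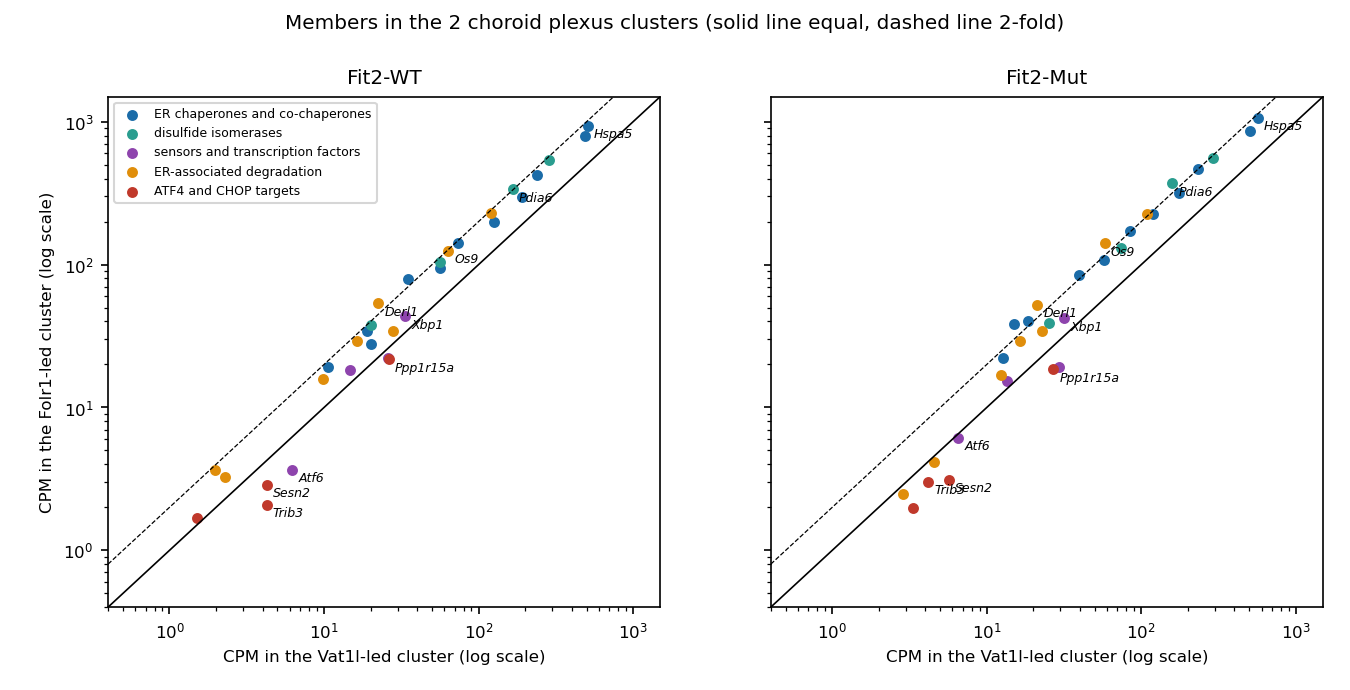
CPM of the 31 measured members in the Folr1-led cluster (vertical) against the Vat1l-led cluster (horizontal) of choroid plexus epithelium-like cells, both on log scales, for each library. The solid line marks equal levels and the dashed line 2-fold. Hspa5, at 935 against 507 CPM in the Fit2-WT library, and the other chaperones lie between the lines or near the dashed one. Atf6, Atf4 and the measured ATF4 and CHOP targets lie near or below the solid line, and Xbp1 and Ddit3 somewhat above it. Ern1 and Eif2ak3 had too few UMIs to be shown.

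Clusters of astrocyte-like cells also differed over the same genes. The 2 astrocyte-like clusters led by B230323A14Rik and Lama3, chosen for comparison after they were seen to have few ribosomal protein transcripts, held 619 and 647 cells. Ribosomal protein genes made up between 0.278% and 0.394% of their UMIs, against 1.29% to 2.41% in the 3 other astrocyte-like clusters. Hspa5 was at 83.7 and 65.4 CPM in them and 423 and 418 CPM in the others, a fold of 0.198 and 0.157. Xbp1 was at 6.87 and 10.4 against 63.3 and 64.6 CPM, and Pdia3 at 58.8 and 55.7 against 367 and 368 CPM. The level of Ern1 ran the other way, at 26.2 and 33.4 CPM in the low-ribosomal clusters and 15.5 and 18.7 in the others, and that of Atf6 did too, at 58.4 and 73.9 against 42.0 and 42.9.

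Of 31 members measured, 23 were at least 1.5-fold lower in both libraries (30.9% of all genes) and 2 higher, Ern1 and Edem1 (20.6%). The median was -1.79 and -1.80, against -0.09 and -0.09 over all genes. All 11 chaperones and 4 isomerases were lower, and 2 of 6 sensors and transcription factors. Translocon and signal peptidase genes were lower for 12 of 14, and N-glycan genes for 7 of 11. Genes outside the secretory pathway were lower as well, with 6 of 9 cytosolic and mitochondrial heat shock genes and 5 of 9 immediate early genes, of which 1 was higher. The low ribosomal share moved with these levels, as did depth, with a median per cluster of 2989 to 4210 UMIs per cell in the low-ribosomal clusters and 4502 to 7617 in the others, and their part in the result was not tested.

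**Figure D3:**
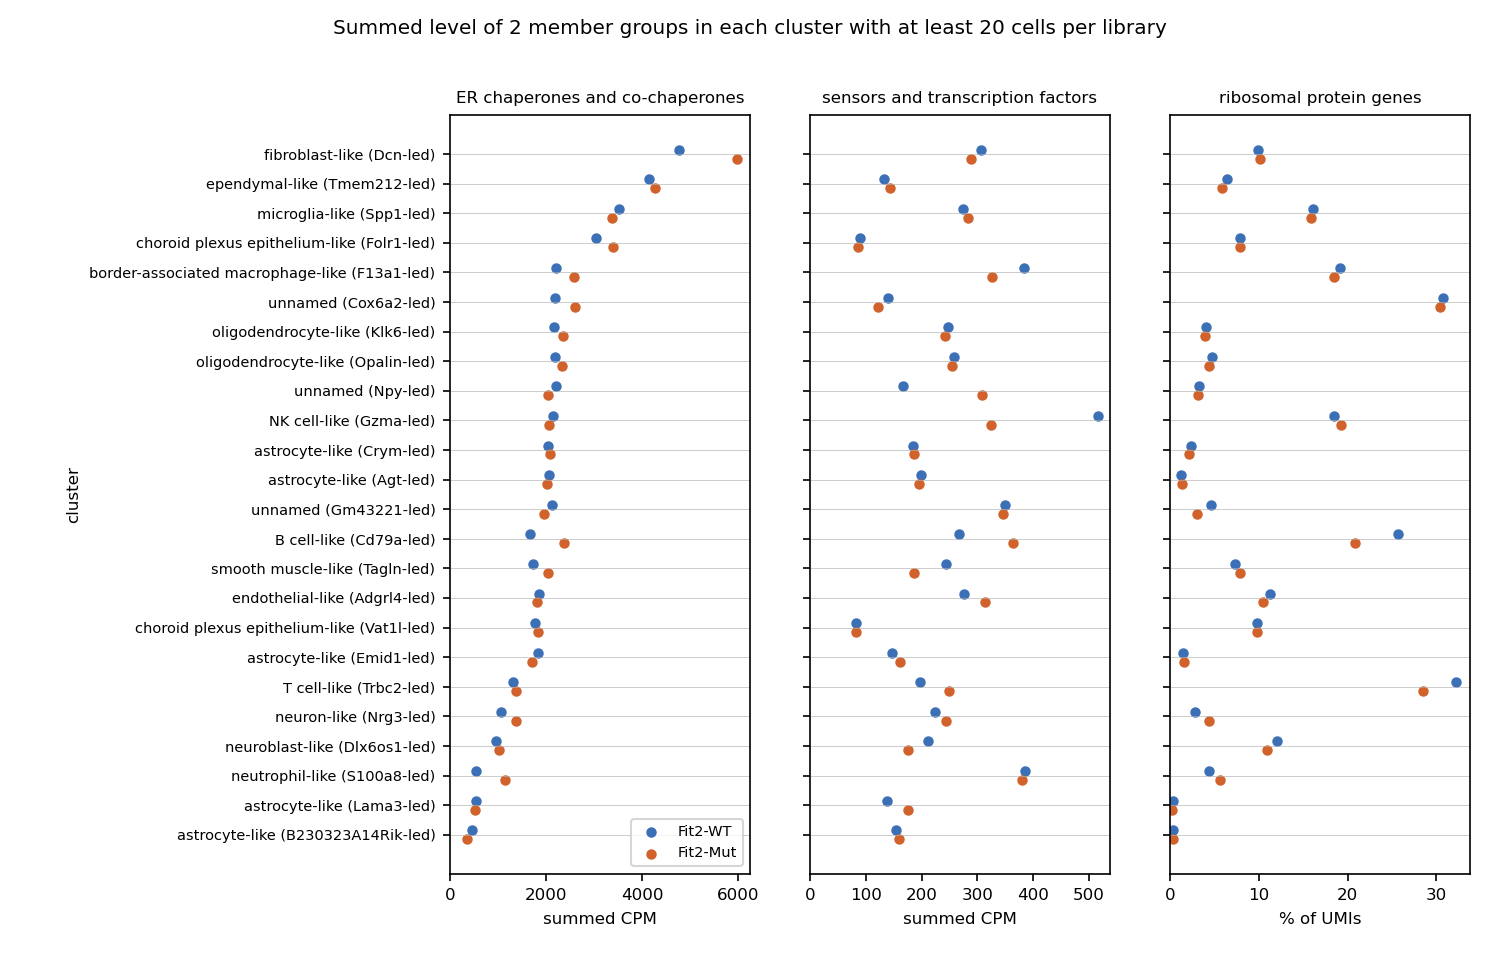
Summed CPM of the 11 chaperones and of the 6 sensors and transcription factors, and the percent of UMIs from ribosomal protein genes, in each cluster with at least 20 cells per library (blue Fit2-WT, orange Fit2-Mut). The Folr1-led choroid plexus cluster, at 3043 and 3404 CPM of chaperones, lies above the Vat1l-led one at 1769 and 1829, while both are lowest for the sensors, and the 2 low-ribosomal astrocyte clusters are at the bottom for chaperones.

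Not every division of a type showed such a difference. Between the oligodendrocyte-like clusters led by Klk6 and by Opalin, 0 of 30 members were 1.5-fold higher (8.07% of all genes) and 0 lower (6.07%), with a median of 0.03 and 0.06. An unnamed cluster of 141 and 119 cells led by Cox6a2, with 7 microglial markers, was set beside the main microglia-like cluster. There 0 of 30 members were higher (3.71%) and 12 lower (50.9%). Ppp1r15a had 0 UMIs in it in the Fit2-WT library, which allows up to 3.77 CPM (3 UMIs), and 4.6 CPM in the Fit2-Mut library, against 154 and 147 CPM in the microglia-like cluster, and 12 of 12 immediate early genes were lower as well.

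The genotypes were compared in the 7 types with at least 100 cells in each library, as the ratio of the Fit2-Mut to the Fit2-WT level for members with at least 20 UMIs together, and a member was called at 1.5-fold. In choroid plexus epithelium-like cells the chaperones were slightly higher in the Fit2-Mut library. Hspa5 was at 767 and 887 CPM, a ratio of 1.16 (1.13 to 1.18), Hsp90b1 at 671 and 734, a ratio of 1.09 (1.07 to 1.12), Dnajc3 at 116 and 140, a ratio of 1.21 (1.14 to 1.28), and Pdia4 at 85.7 and 110, a ratio of 1.28 (1.19 to 1.37). Of 34 members measured 2 passed 1.5-fold upwards (3.18% of all genes) and 0 downwards (2.88%). These were Eif2ak3, at 0.715 and 1.63 CPM from 12 and 27 UMIs, with a ratio of 2.28 (1.11 to 4.93), and Asns from 27 and 41 UMIs, with a ratio of 1.54 (0.922 to 2.60).

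All 11 chaperones and 4 isomerases had a ratio above 1, between 1.04 and 1.28, where 48.0% of all genes were above 1. The interval lay above 1 for 11 and 3 of them. Of the 9 degradation genes 4 were above 1, and of the ATF4 and CHOP targets 3 of 4 measured. The 3 sensors were above 1 too, Ern1 at 1.39 (0.698 to 2.83) and Atf6 at 1.35 (0.996 to 1.83) beside Eif2ak3, while Xbp1, Atf4 and Ddit3 had ratios of 0.975, 0.968 and 0.872 with intervals that held 1. Over all 34 members the median log2 ratio was 0.14, against -0.01 over all genes. Of their intervals 16 lay above 1 (5.38% of all genes) and 0 below (8.15%). A counting interval narrows as UMIs rise, so that of Manf left out 1 at a ratio of 1.04. The all-gene shares were not matched to the members on UMIs. The part of abundance in the interval counts, here and in the comparisons below, was not tested. Lists of related genes were nearer 0, with a median log2 ratio of 0.02 for other ER folding factors, -0.00 for translocon genes and 0.05 for N-glycan genes, and 0.12 for heat shock genes.

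The counts were also taken in each of the 2 large clusters, and the difference between the clusters was not tested. In the Folr1-led cluster 24 of 34 members were above 1 (46.5% of all genes) and 15 intervals lay above 1 (4.64%), the median log2 ratio was 0.13, and 3 members were called higher (3.84%), Ern1, Eif2ak3 and Atf6, and 0 lower (3.26%). In the Vat1l-led cluster, where Hspa5 had 3346 and 3390 UMIs against 9435 and 11264, 18 of 31 were above 1, a share near the 54.8% of all genes. The median there was 0.03, with 4 intervals above (5.88%) and 1 below, and 2 called higher (4.3%), Syvn1 and Asns, and 0 lower (3.31%). Hspa5 had a ratio of 1.14 (1.11 to 1.17) in the former and 1.12 (1.07 to 1.18) in the latter, and Pdia4 of 1.24 (1.15 to 1.35) and 1.32 (1.15 to 1.52). Creld2 had a ratio of 1.38 (1.18 to 1.62) in the former and 0.754 (0.570 to 0.993) in the latter. Hspa5 and Pdia4 were thus higher in the Fit2-Mut library in both clusters, and Creld2 in the Folr1-led one. Every chaperone and isomerase had a ratio above 1 in the Folr1-led cluster. In the Vat1l-led cluster Calr (0.967), Canx (0.935), Dnajb9 (0.982), Manf (0.928) and Pdia6 (0.952) were below 1 beside Creld2. The intervals of those named with Creld2 held 1, and the other chaperones and isomerases there were above 1.

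In microglia-like cells the members stood on both sides. Of 32 measured, 16 were above 1, where 58.9% of all genes were, and 16 below. Called were 1 higher, Sesn2 (7.48% of all genes), and 1 lower, Trib3 (3.44%), both with intervals that held 1. The median log2 ratio was -0.00, against 0.05 over all genes. Hsp90b1 was at 879 and 834 CPM, a ratio of 0.948 (0.911 to 0.987), Pdia3 at 721 and 676, a ratio of 0.938 (0.898 to 0.98), and Manf at 209 and 190, a ratio of 0.909 (0.837 to 0.988). The ratio was above 1 for Eif2ak3 at 14.9 and 22.0 CPM, 1.48 (1.11 to 1.98), for Sel1l at 47.5 and 62.7 CPM, 1.32 (1.12 to 1.56), and for Herpud1 at 110 and 130 CPM, 1.19 (1.07 to 1.33). Selenos had a ratio of 0.916 (0.84 to 0.999). Of the 32 intervals 3 lay above 1, where 10.9% of all genes had one, and 4 below (4.82%).

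**Figure D4:**
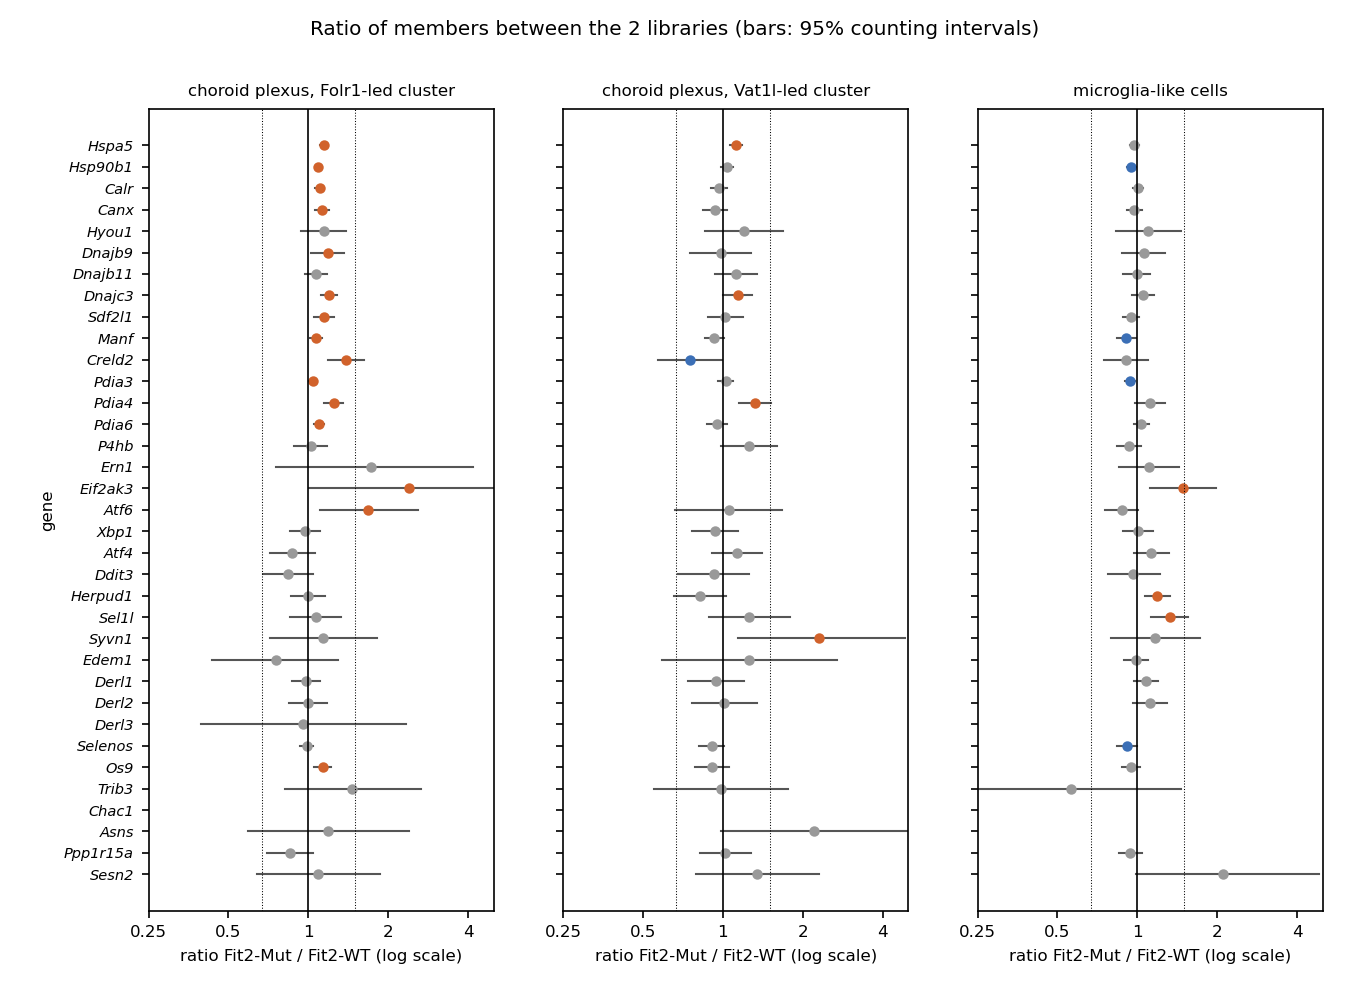
Ratio of the Fit2-Mut to the Fit2-WT level of each measured member in the Folr1-led and Vat1l-led choroid plexus clusters and in microglia-like cells, on a log scale, with bars for 95% counting intervals (orange above 1, blue below 1, grey holding 1) and dotted lines at 1.5-fold. Chaperones lie just above 1 in the Folr1-led cluster, with Hspa5 at 1.14, and members lie on both sides of 1 in microglia-like cells.

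Oligodendrocyte-like cells had 0 of 32 members called higher (5.18%) and 0 lower (3.08%), and a median of 0.05. Within that, Hspa5 was at 411 and 480 CPM, a ratio of 1.17 (1.11 to 1.22), Creld2 had a ratio of 1.33 (1.11 to 1.60) and Edem1, at 16.9 and 25.0 CPM, of 1.48 (1.19 to 1.85). Astrocyte-like cells had 0 of 31 higher (4.19%) and 0 lower (3.08%), with a median of 0.07 that was -0.01 without the low-ribosomal clusters, which held 619 of the 1201 cells in the Fit2-WT and 647 of the 1458 in the Fit2-Mut library. In the low-ribosomal clusters alone the median was -0.04, with 3 of 29 members called higher (5.58%), Xbp1, Syvn1 and Sesn2, and 1 lower (6.29%), Atf4. Hspa5 there had a ratio of 0.781 (0.633 to 0.962) and Calr of 0.677 (0.513 to 0.89). Endothelial-like cells had 2 of 32 higher (5.79%), Hyou1 and Eif2ak3, both with intervals that held 1, and 0 lower (5.6%). Atf4 there was at 56.0 and 78.8 CPM, a ratio of 1.41 (1.08 to 1.84), the 1 interval above 1 (4.2% of all genes) beside 2 below (5.76%). Erythrocyte markers in this class summed to 7457 and 38350 CPM and astrocyte markers to 170 and 313 CPM, and their part in these ratios was not tested.

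T cell-like cells had the largest median ratio of the 7 types, and it rested on one cluster. Hspa5 was at 302 and 460 CPM, a ratio of 1.52 (1.33 to 1.74), Sdf2l1 at 63.1 and 110, a ratio of 1.74 (1.31 to 2.35), Edem1 at 60.2 and 96.2, a ratio of 1.60 (1.18 to 2.18), and Xbp1 at 28.7 and 50.3, a ratio of 1.75 (1.14 to 2.76). These were the 4 of 30 members called higher (17.2% of all genes), with 0 lower (7.22%), and the median was 0.37 against 0.05 over all genes. A cluster in this class, with 12 cells in the Fit2-WT and 42 in the Fit2-Mut library, had a median of 15538 UMIs per cell. Its 9 microglial markers summed to 22961 and 20260 CPM beside 1354 and 1411 CPM of T cell markers. In the main T cell-like cluster of 185 and 187 cells the microglial markers were at 354 and 531 CPM. Without the former cluster Hspa5 was at 259 and 305 CPM, a ratio of 1.18 (0.98 to 1.41), Sdf2l1 at 34.7 and 43.9, a ratio of 1.26 (0.762 to 2.11), and the median was 0.10. Of 28 members 1 was called higher, Atf6 (10.2%), and 1 lower, Creld2 (7.81%), and 0 intervals left out 1. Whether barcodes of that cluster hold 2 cells was not tested.

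**Figure D5:**
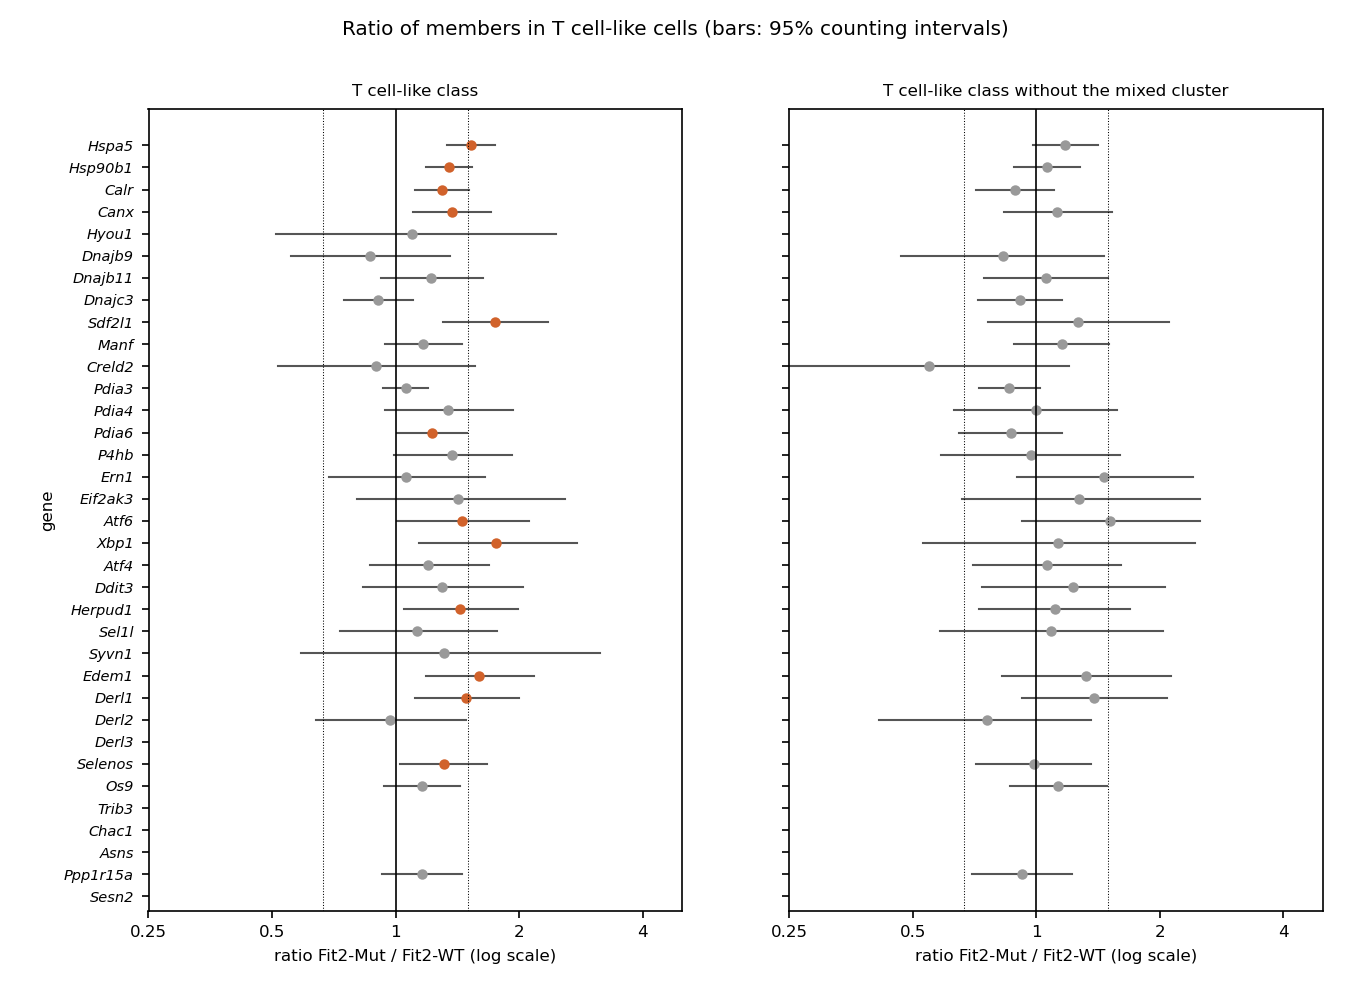
Ratio of the Fit2-Mut to the Fit2-WT level of each measured member in T cell-like cells, with and without the cluster that also holds microglial markers, on a log scale with 95% counting intervals (orange above 1, grey holding 1) and dotted lines at 1.5-fold. With the cluster Hspa5 lies at 1.52, and without it at 1.18 with an interval that holds 1.

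Other lists in the T cell-like class with that cluster gave 5 of 16 other sensors and regulators higher, including Atf3 with a ratio of 3.29 (2.78 to 3.91), and 7 of 12 immediate early genes of dissociation higher and 1 lower. The immediate early genes summed to 4094 and 5467 CPM.

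In ependymal-like cells the direction was downwards for Herpud1 and Ddit3. Herpud1 was at 66.0 and 35.8 CPM from 74 and 52 UMIs, a ratio of 0.543 (0.373 to 0.784), and Ddit3 at 15.2 and 4.13 CPM from 17 and 6 UMIs, a ratio of 0.273 (0.088 to 0.725). They were the 2 of 28 members called lower (7.2%), with 0 higher (7.77%), and the median was 0.04. Hspa5 in these cells was at 1128 and 1139 CPM, a ratio of 1.01 (0.938 to 1.09). Immediate early genes, which tissue dissociation is known to induce, summed to 2178 and 1293 CPM, and 9 of 12 were lower, among them Fos with a ratio of 0.362 (0.305 to 0.429). Of other sensors and regulators 5 of 16 were lower, Atf3 among them, and 1 higher. The part of dissociation in the Herpud1 and Ddit3 values was not tested.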

How the data were processed

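Per the file headers, the deposited matrices hold raw UMI counts per gene and barcode, unfiltered, written by Cell Ranger 7.1.0; the submitters' processing notes name Cell Ranger 7.0.0 and mm10. Whether intronic reads were counted is not given in the sources used here. Barcodes with at least 1000 UMIs, 500 genes and at most 10% mitochondrial UMIs were kept, and Scrublet removed 124 and 155 as doublets (2.33% and 2.59%). Both libraries were clustered together (Scanpy 1.11.5, 2000 variable genes less the members, 30 components, Leiden resolution 1) without integration. Clusters were named where at least 3 markers and 50% of 1 of 21 lists were 2-fold higher and in 10% of cells. Summed counts gave CPM with exact Poisson intervals and ratios with exact conditional intervals, checked on simulated data. TMM and median-of-ratios factors came from edgeR 4.0.16. The text names the sensors, transcription factors, members whose highest type was 2-fold above other cells with 50 UMIs, and members past 1.5-fold between genotypes with intervals off 1; others were chosen after their values were seen. Members, lists, cluster contrasts and motifs were chosen with earlier results of these data known.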

Additional observations from a re-analysis of the deposited data

Results flagged for a closer look

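For 7 members the Fit2-Mut to Fit2-WT ratio had a counting interval above 1 in some types and below 1 in others. In every case the difference between types was not tested, since each genotype is 1 library, and the intervals cover counting error only.

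Hsp90b1 was above 1 in choroid plexus epithelium-like (1.09), oligodendrocyte-like (1.08, 1.04 to 1.12) and T cell-like cells (1.35, 1.19 to 1.53), and below 1 in microglia-like cells (0.948). Pdia3 was above 1 in choroid plexus epithelium-like (1.05, 1.02 to 1.09), astrocyte-like (1.07, 1.01 to 1.15) and oligodendrocyte-like cells (1.11, 1.05 to 1.17), and below 1 in microglia-like cells (0.938). Manf was above 1 in choroid plexus epithelium-like (1.04) and astrocyte-like cells (1.11), and below 1 in microglia-like (0.909) and endothelial-like cells (0.805, 0.653 to 0.99).

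Herpud1 was above 1 in microglia-like (1.19) and T cell-like cells (1.44, 1.05 to 1.98), and below 1 in ependymal-like cells (0.543). Derl1 was above 1 in T cell-like (1.49, 1.11 to 2.0) and below 1 in ependymal-like cells (0.734, 0.547 to 0.983). Selenos was above 1 in T cell-like (1.31, 1.03 to 1.68) and below 1 in oligodendrocyte-like (0.924, 0.870 to 0.981) and microglia-like cells (0.916, 0.840 to 0.999). Os9 was above 1 in choroid plexus epithelium-like (1.11, 1.03 to 1.18) and below 1 in endothelial-like cells (0.745, 0.591 to 0.936). Some of these values change within a class. In astrocyte-like cells without the low-ribosomal clusters Pdia3 was at 1.0 (0.935 to 1.07) and Manf at 1.06 (0.949 to 1.18), and within them at 0.947 (0.746 to 1.20) and 0.771 (0.53 to 1.12). In the Vat1l-led choroid plexus cluster Manf was at 0.928 (0.854 to 1.01), Pdia3 at 1.03 (0.961 to 1.10) and Hsp90b1 at 1.03 (0.984 to 1.09). The T cell-like values include the cluster that holds microglial markers; without it none of the 28 members measured had an interval that left out 1.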

How the results depend on the processing

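No paired analysis was possible because each genotype is 1 library, and for the same reason a difference between genotypes cannot be told apart from a difference between libraries. Scarce members (Chac1, Derl3, Trib3, Asns, Sesn2) are limited by depth. Under other settings 347 counts and medians and 55 ratios of single members stayed as reported. Of the others, 42 counts moved by over 1.5 times, 14 ratios of single members no longer passed 1.5-fold, and 0 ratios reversed. A median counted as stayed if it moved by at most the median half-width of its members' log2 intervals, from 0.161 (microglia-like) to 0.449 (T cell-like). Each reported median was smaller than that width, so none could count as reversed. The T cell-like median of 0.37 counted as stayed at 0.10, and the astrocyte-like 0.07 at -0.01. The cause was not tested unless the setting itself names it.

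Members at least 2-fold higher in a type moved as follows. In choroid plexus epithelium-like cells the reported 0 became 9 with TMM factors, 11 with median-of-ratios factors and 2 without the 10 most abundant genes. In microglia-like cells the reported 8 became 4 with doublets kept, 14 with TMM factors, 15 with median-of-ratios factors, 4 with types called from the marker share of each cell and 5 with the Cox6a2-led cluster added. The reported 3 in neuron-like cells became 1 with doublets kept, either set of factors, equal weight per cell or the marker share. The 3 in T cell-like cells became 1 with equal weight or the marker share. The 3 in oligodendrocyte-like cells became 1 without mitochondrial and ribosomal genes in the total. The 1 in astrocyte-like cells became 0 with equal weight and 2 without the low-ribosomal clusters. The 2 in neuroblast-like cells became 1 at a minimum of 100 UMIs, and the 1 became 2 in smooth muscle-like cells with equal weight and in NK cell-like cells with the marker share.

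Members past 1.5-fold between genotypes moved too. In choroid plexus epithelium-like cells the reported 2 became 0 at 100 UMIs and 1 with the marker share. In T cell-like cells the reported 4 became 2 with doublets kept, without mitochondrial and ribosomal genes or without the cluster that holds microglial markers, and 8 with equal weight. In ependymal-like cells the reported 2 became 1 at 100 UMIs, 7 at 1 UMI in each library and 4 with the marker share. In microglia-like cells the 2 became 0 at 100 UMIs and 1 with equal weight or the marker share. In endothelial-like cells the 2 became 0 with doublets kept or at 100 UMIs, and 1 at 5% mitochondrial UMIs, at a minimum of 500 UMIs per cell or without mitochondrial and ribosomal genes. In oligodendrocyte-like cells the 0 became 1 with doublets kept, 2 at 1 UMI and 3 with equal weight, and in astrocyte-like cells the 0 became 1 at 1 UMI. The median log2 ratio ranged from 0.12 to 0.16 in the choroid plexus class and, in T cell-like cells, from 0.10 to 0.43. The 14 ratios were those of Hspa5, Sdf2l1, Xbp1 and Edem1 in T cell-like and Herpud1 in ependymal-like cells. Settings that concern single clusters were chosen after seeing the data.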
